A study of Mus musculus with 6 samples.

Results

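Hox genes encode homeodomain transcription factors that lie in 4 clusters, named HoxA to HoxD, and are numbered from 1 to 13 by their place in the cluster. Genes of the same number in different clusters are paralogues. The members were 38 protein-coding Hox genes, chosen by gene symbol with earlier results of these data known. Of these, 33 had a row in the array table of 22206 transcript clusters, each on a single row. These were 8 genes of HoxA, 9 of HoxB, 9 of HoxC and 7 of HoxD. The signal of Hoxa7, Hoxa9, Hoxb4, Hoxd3 and Hoxd4 was not analysed here, but their promoters are among those counted below.

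Along the body axis and along tubular organs, low-numbered Hox genes are active towards the head and high-numbered ones towards the tail, in the order in which they lie on the chromosome. The Müllerian duct, the embryonic forerunner of oviduct, uterus and upper vagina, is the classic case for the female tract. There Hoxa9 marks the future oviduct, Hoxa10 the uterus, Hoxa11 the lower uterus and cervix and Hoxa13 the vagina, and the high-numbered HoxD genes are also active in the tract. Hox proteins bind DNA together with cofactors of the Pbx and Meis families.

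The study compared Müllerian ducts of 3 mutant mouse embryos, of genotype Lats1f/f,Lats2f/f,Amhr2cre/+, with those of 3 control embryos of genotype Lats1f/f,Lats2f/f, all at E17.5, to ask what the kinases Lats1 and Lats2 do in the developing duct. Both groups carried the floxed alleles, and only the mutants carried Cre, which sits in one copy of the Amhr2 locus and acts in the mesenchyme around the duct. The genotypes therefore differ both in the Cre allele and in whatever deletions it made. The labels call the samples of a group biological replicates, do not give the sex of the embryos, and do not say whether a sample held ducts of 1 embryo or several. Whole ducts were measured, so fewer cells of a type and less RNA per cell cannot be told apart in any result here.

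Signals are the deposited log2 values, so a difference of 1 is a 2-fold difference. Array medians lay between 6.87 and 6.95. The 23 antigenomic background rows of each array, whose probes match no mouse sequence, had medians of 5.67, 5.81 and 5.88 on mutant arrays and 5.46, 5.35 and 5.86 on control arrays, and "above background" below means above that median on the same array. Single background rows ran widely, from 2.43 to 8.82 on mutant 1 and from 2.39 to 8.16 on control 1, so this cut is approximate. Control 3 stood apart from the other arrays. Urothelial markers averaged between 5.78 and 5.94 on the mutant arrays, against 5.76 in control 1 and 9.67 in control 3, with control 2 much nearer to control 1, and smooth muscle markers averaged between 10.07 and 10.49 on the mutant arrays, against 9.22, 10.13 and 12.02 on the control arrays. The 4 Hox genes that passed the test and the smooth muscle and urothelial counts are given with and without it. Of the targeted genes, Lats1 was at 11.12, 11.77 and 11.60 on mutant arrays, against 12.51, 12.13 and 12.20 on control arrays (log2 change -0.78, limma adjusted p = 0.0958), and Lats2 had a log2 change of 0.22 (adjusted p = 0.684). Whether their probes lie in the floxed exons is not known here, so these rows do not check the deletion. All 9 measured markers of the duct mesenchyme were above background on every array. Nr2f2 and Wt1 are among them, and Wt1 is also on the mesothelial list. Of 11 epithelial markers, Lhx1 and Foxa2 were below background on every array, and the others, such as Pax8 and Wnt7a, were above it.

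In mutant ducts, 3 neighbouring genes of the HoxD cluster, Hoxd9, Hoxd10 and Hoxd11, had between 2.60 and 2.95 times less signal than in control ducts, and Hoxc8 had 2.51 times more. Hoxa10 and Hoxa11 also averaged lower in mutant ducts without passing the test. No member of the HoxB cluster passed it, and the genes numbered 13 of all 4 clusters were below background on every array. At an adjusted p of 0.05 in limma, 3 of the 33 Hox genes fell (9.09%), against 0.666% of all rows, and 1 rose (3.03%), against 2.59% of all rows. In either direction that is 12.1% of the Hox genes and 3.26% of all rows.

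Hoxd9, Hoxd10 and Hoxd11 lie side by side between Hoxd8 and Hoxd12, all transcribed in the same direction, on mouse chromosome 2. The promoters of these 3 genes are shown because they are the stretch of the clusters whose signal fell together. Each is the window from 250 bases before to 50 bases after an annotated start, from RefSeq on GRCm38.p6, on the + strand. Hoxd9 lies at chr2:74697513-74697812, Hoxd10 at chr2:74691641-74691940, and Hoxd11 has starts at chr2:74679308-74679607 and at chr2:74682073-74682372. Capitals mark matches to any of the 5 motifs described after the sequences.
Hoxd9: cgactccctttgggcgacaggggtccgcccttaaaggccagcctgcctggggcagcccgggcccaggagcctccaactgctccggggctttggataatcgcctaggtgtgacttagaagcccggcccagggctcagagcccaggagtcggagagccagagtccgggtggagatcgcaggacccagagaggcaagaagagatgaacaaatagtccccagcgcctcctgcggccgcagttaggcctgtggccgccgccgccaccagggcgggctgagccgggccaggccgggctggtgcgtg
Hoxd10: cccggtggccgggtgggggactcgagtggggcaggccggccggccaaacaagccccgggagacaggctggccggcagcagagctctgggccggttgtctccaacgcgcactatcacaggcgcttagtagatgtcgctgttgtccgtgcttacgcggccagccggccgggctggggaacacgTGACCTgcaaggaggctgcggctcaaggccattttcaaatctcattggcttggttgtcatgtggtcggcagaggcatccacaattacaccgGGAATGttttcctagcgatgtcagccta
Hoxd11 first start: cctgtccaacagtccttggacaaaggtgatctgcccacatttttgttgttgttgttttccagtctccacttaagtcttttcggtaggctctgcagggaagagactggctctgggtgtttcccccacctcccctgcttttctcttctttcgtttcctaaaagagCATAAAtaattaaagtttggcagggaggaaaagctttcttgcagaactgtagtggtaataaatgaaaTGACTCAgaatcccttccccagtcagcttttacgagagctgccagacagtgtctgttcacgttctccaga
Hoxd11 second start: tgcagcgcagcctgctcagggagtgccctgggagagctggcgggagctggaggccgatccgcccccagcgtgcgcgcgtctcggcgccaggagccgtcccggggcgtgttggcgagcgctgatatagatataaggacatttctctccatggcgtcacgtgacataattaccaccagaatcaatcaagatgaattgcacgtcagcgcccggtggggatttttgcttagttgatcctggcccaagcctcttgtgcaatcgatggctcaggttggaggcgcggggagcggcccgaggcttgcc

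The motifs searched, on both strands, were GGAATG of the TEAD factors through which YAP and TAZ bind DNA, TTTATG of the caudal CDX factors, AGGTCA as the core site of retinoic acid receptors, TGANTCA of AP-1, and the TATA box TATAAA, and matches could overlap. The Hoxd10 promoter held the TEAD letters and the retinoic acid receptor core site, and the first start of Hoxd11 held a CDX and an AP-1 match. The Hoxd9 window and the second start of Hoxd11 held none of the 5. Among all 32851 promoter windows of this length in the table, 14.7% held the TEAD letters, 16.3% the core site, 11.9% the CDX letters, 7.81% the AP-1 letters and 13.6% a TATA box. Of 24 starts of the 22 Hox genes found in that table, 2 held the TEAD letters (Hoxa9 and Hoxd10), 7 the core site, 5 the CDX letters, 1 the AP-1 letters and 4 a TATA box. These genes include Hoxa7, Hoxa9, Hoxb4, Hoxd3 and Hoxd4, whose signal was not analysed. Hoxc8 had no window in that table. A match is only a run of letters, and binding was not measured. The Hox windows were rich in CpG pairs, with a median of 14.5 against 7 over all windows. The 3 genes differed among themselves in this, with 20 CpG pairs at Hoxd9, 22 at Hoxd10, and 4 and 25 at the starts of Hoxd11.

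Hoxd11, which acts with Hoxa11 in the forearm and kidney, had log2 signals of 13.85, 13.73 and 13.32 in mutant ducts, against 15.30, 14.91 and 14.95 in control ducts. Every mutant array lay below every control array, with a gap wider than the range within either group. The means were 13.63 ± 0.28 in mutant and 15.05 ± 0.22 in control ducts (SD, n = 3 each), a log2 change of -1.42 ± 0.20 (SE) with a 95% interval from -1.87 to -0.97 and a limma adjusted p of 0.00514. The signal was 2.68-fold lower in mutant ducts.

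Hoxd10, a patterning gene of the hindlimb and of the motor neurons that serve it, had signals of 11.23, 11.52 and 10.85 in mutant ducts, against 13.11, 12.61 and 12.54 in control ducts. The groups did not overlap, and control 1 was the highest array, as it was for Hoxd11. With means of 11.20 ± 0.33 in mutant and 12.75 ± 0.31 in control ducts (SD, n = 3 each), the log2 change was -1.56 ± 0.23 (SE, 95% interval -2.07 to -1.04, limma adjusted p = 0.00637), or 2.95-fold lower in mutant ducts. The annotated spans of Hoxd10 and Hoxd11 overlap in RefSeq. The sources used here do not give probe positions, and whether both rows pick up a shared transcript was not tested.

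Hoxd9, which acts with Hoxa9 in the lumbar spine and upper forelimb, had signals of 6.45, 6.70 and 6.27 in mutant ducts, against 7.79, 7.81 and 7.94 in control ducts. Again the groups did not overlap, and the control arrays lay within a narrow range. The means were 6.47 ± 0.21 and 7.85 ± 0.08 in mutant and control ducts (SD, n = 3 each), and the log2 change was -1.38 ± 0.17 (SE, 95% interval -1.76 to -0.99, limma adjusted p = 0.00268), or 2.60-fold lower in mutant ducts. The mutant signals were above the median of the background rows but below their 75th percentile, which was between 6.79 and 6.87 over the arrays, so the size of this fall is less precise than its test.

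The HoxD genes on either side did not pass the test. Hoxd8 went the same way by less, and Hoxd12 went the other way. Hoxd8, next to Hoxd9, had signals of 7.78, 8.05 and 8.04 in mutant ducts, against 8.34, 8.33 and 8.10 in control ducts, with a log2 change of -0.30 ± 0.17 (SE, limma adjusted p = 0.453). Its groups did not overlap, by a narrow gap between mutant 2 and control 3. Hoxd12, next to Hoxd11, had signals of 7.26, 6.66 and 6.39 in mutant ducts, against 6.10, 6.19 and 6.55 in control ducts. These overlapped, and the log2 change was 0.49 ± 0.24 (SE, 95% interval -0.05 to 1.04, limma adjusted p = 0.387). Hoxd1, at the far end of the cluster, and Hoxd13, a gene of digits and external genitalia, were below background on every array, at 4.12 to 4.45 and 4.61 to 4.66 in mutant ducts and 4.41 to 4.59 and 3.97 to 4.59 in control ducts.

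**Figure D1:**
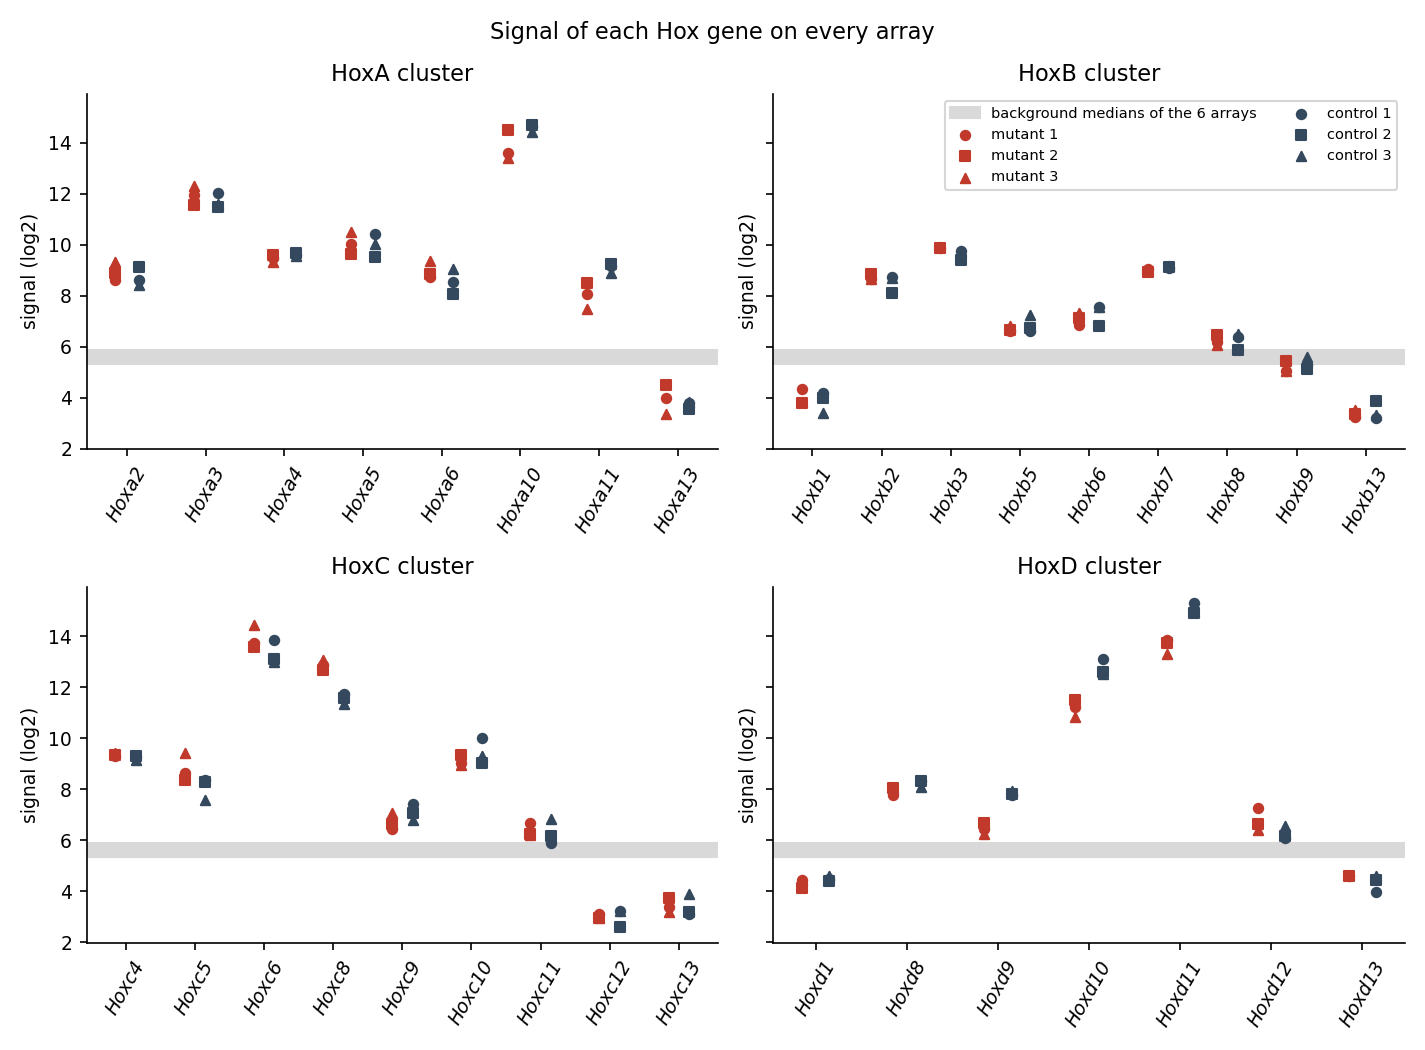
Log2 signal of each of the 33 Hox genes on the 6 arrays, 1 panel per cluster, with genes in order of their number on the x axis, mutant arrays in red left of control arrays in dark blue, and the range of the 6 background medians as a grey band. The arrays of Hoxd9, Hoxd10, Hoxd11 and Hoxc8 separate by genotype, and the genes numbered 13 lie under the band.

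Hoxc8, which patterns the thoracic skeleton and the motor neurons of the forelimb, was the single Hox gene that rose. Its signals were 12.88, 12.67 and 13.09 in mutant ducts, against 11.72, 11.58 and 11.36 in control ducts. Every mutant array was above every control array, and mutant 3 was the highest. The means were 12.88 ± 0.21 in mutant and 11.55 ± 0.19 in control ducts (SD, n = 3 each). The log2 change was 1.33 ± 0.18 (SE, 95% interval 0.91 to 1.74, limma adjusted p = 0.00452), or 2.51-fold higher in mutant ducts.

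Its HoxC neighbours on the low-numbered side averaged higher in mutant ducts without passing the test. Hoxc6, a thoracic gene also active in the mammary bud, had signals of 13.75, 13.57 and 14.46 in mutant ducts, against 13.85, 13.10 and 13.01 in control ducts, so control 1 fell within the mutant range. The log2 change was 0.61 ± 0.29 (SE, 95% interval -0.05 to 1.27, limma adjusted p = 0.372). Hoxc5 had signals of 8.63, 8.39 and 9.42 in mutant ducts, against 8.39, 8.30 and 7.60 in control ducts. Mutant 2 and control 1 had nearly the same signal, while mutant 3 was the highest array and control 3 the lowest. The log2 change of Hoxc5 was 0.71 ± 0.30 (SE, limma adjusted p = 0.301), 0.41 without mutant 3 and 0.47 without control 3. Hoxc4 differed by little, at 9.31, 9.36 and 9.42 in mutant ducts and 9.28, 9.29 and 9.14 in control ducts.

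On the high-numbered side of HoxC the averages ran the other way for Hoxc9 and Hoxc10. Hoxc9, which sets the thoracic identity of motor neurons, had signals of 6.43, 6.63 and 7.08 in mutant ducts, against 7.44, 7.09 and 6.80 in control ducts. The groups overlapped, with a log2 change of -0.40 ± 0.23 (SE, limma adjusted p = 0.473). Hoxc10, a lumbar and hindlimb gene, had signals of 9.05, 9.37 and 8.98 in mutant ducts, against 10.00, 9.05 and 9.32 in control ducts. Its groups overlapped too, with a log2 change of -0.32 ± 0.25 (SE, limma adjusted p = 0.61). Hoxc11 lay near background on all arrays, at 6.21 to 6.70 in mutant and 5.90 to 6.85 in control ducts, and its 95% interval ran from -0.50 to 0.66. Hoxc12 and Hoxc13, genes known from the hair follicle, were below background on every array, at 2.96 to 3.13 and 3.19 to 3.76 in mutant ducts and 2.62 to 3.23 and 3.12 to 3.89 in control ducts.

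**Figure D2:**
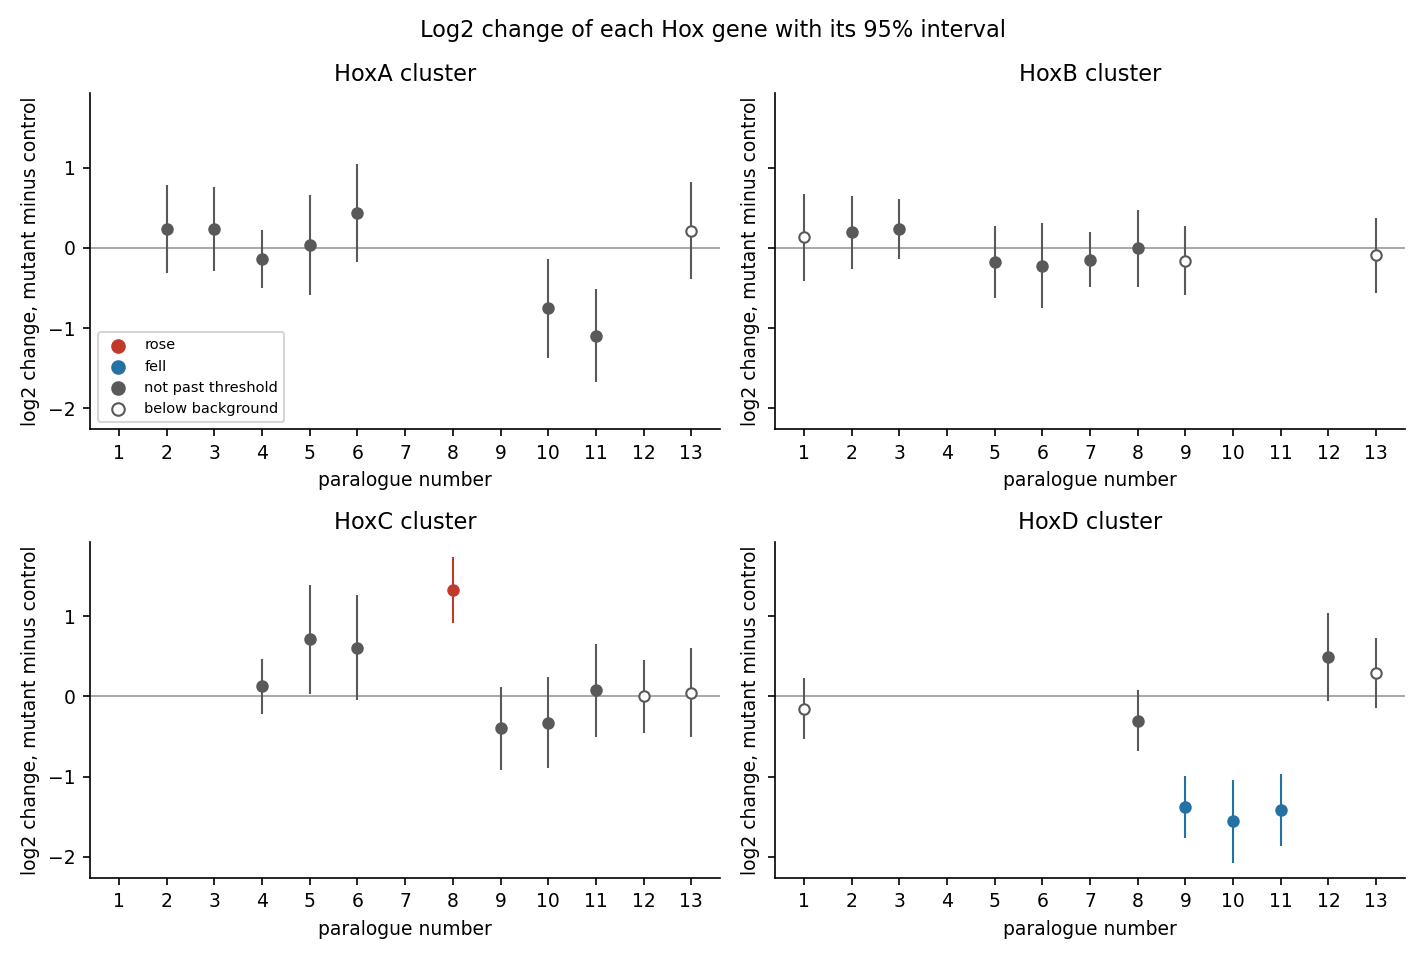
Log2 change, mutant minus control, of each Hox gene against its paralogue number, 1 panel per cluster, with bars for the 95% interval from limma. Red marks the gene that rose, blue those that fell, grey those that did not pass an adjusted p of 0.05, and open points genes below background on every array. Hoxd9, Hoxd10 and Hoxd11 lie between -1.56 and -1.38, and Hoxc8 at 1.33.

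In the HoxA cluster, Hoxa10 and Hoxa11, the genes of uterine identity, had lower means in mutant ducts, and mutant 2 was the array nearest to the controls for both. Hoxa11 had signals of 8.06, 8.51 and 7.47 in mutant ducts, against 9.16, 9.25 and 8.91 in control ducts. The groups did not overlap, but the mutant arrays spread by more than 1 on the log2 scale, with an SD of 0.52 against 0.17 among controls. The log2 change was -1.09 ± 0.26 (SE, 95% interval -1.67 to -0.52), or 2.14-fold lower in mutant ducts, and its limma adjusted p of 0.0557 did not pass. Without mutant 2 it did, at -1.34 with an adjusted p of 0.0272, and over the 6 fits that each left out 1 array the adjusted p ran from 0.0272 to 0.177. It also passed when arrays were weighted by quality (adjusted p = 0.0366), with a prior that follows mean signal (0.0291), and with dim rows left out by either filter (0.0352 and 0.0457).

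Hoxa10 had signals of 13.60, 14.51 and 13.42 in mutant ducts, against 14.68, 14.68 and 14.43 in control ducts. Mutant 2 lay within the control range, and the other mutant arrays lay below it. The means were 13.84 ± 0.58 in mutant and 14.60 ± 0.14 in control ducts (SD, n = 3 each), with a log2 change of -0.75 ± 0.27 (SE, 95% interval -1.37 to -0.14, limma adjusted p = 0.218). Without mutant 2 the change was -1.09 and passed (adjusted p = 0.0273), and without mutant 3 it was -0.54 (adjusted p = 0.444). Leaving out mutant 2 thus moved the count of falling Hox genes from 3 to 5, by adding Hoxa10 and Hoxa11. Hoxa11 also passed in fits that kept mutant 2, such as that with array weights, while Hoxa10 passed in none of those.

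Hoxa11os, the antisense RNA whose annotated span overlaps that of Hoxa11, had signals of 8.29, 9.41 and 8.20 in mutant ducts, against 8.39, 9.72 and 9.14 in control ducts. These overlapped, and the array numbered 2 was the highest in each group. The log2 change was -0.45 ± 0.39 (SE, limma adjusted p = 0.656).

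The other HoxA genes did not differ beyond their spread. Hoxa2, which patterns the second pharyngeal arch, was at 8.64 to 9.34 in mutant and 8.41 to 9.13 in control ducts, and Hoxa3, needed for the thymus and parathyroid, at 11.56 to 12.32 in mutant and 11.50 to 12.03 in control ducts. The arrays of both genes overlapped between groups. Hoxa5, a lung and cervical gene, was at 9.62 to 10.49 in mutant and 9.54 to 10.42 in control ducts, with a log2 change of 0.04 ± 0.28 (SE, limma adjusted p = 0.966). Hoxa4 was at 9.33 to 9.62 in mutant and 9.56 to 9.68 in control ducts, with a log2 change of -0.13 ± 0.16 (SE). Hoxa6 had a higher mean in mutant ducts, with overlapping arrays at 8.73 to 9.37 in mutant and 8.06 to 9.04 in control ducts and a log2 change of 0.43 ± 0.27 (SE, 95% interval -0.18 to 1.04). Hoxa13, the gene of the future vagina and external genitalia, was below background on every array, at 3.35 to 4.50 in mutant and 3.56 to 3.84 in control ducts. The annotated span of Hoxa3 overlaps those of Hoxa4, Hoxa5 and Hoxa6.

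In HoxB the log2 changes spanned a narrower range than in the other clusters. Its 6 genes above background on every array, Hoxb2, Hoxb3, Hoxb5, Hoxb6, Hoxb7 and Hoxb8, had log2 changes between -0.22 and 0.23. Hoxb7, known from the Wolffian duct and ureteric bud, was at 8.93 to 9.07 in mutant ducts, against 9.10 to 9.19 in control ducts. Hoxb3, a hindbrain gene, was at 9.87, 9.88 and 9.91 in mutant ducts, against 9.77, 9.42 and 9.77 in control ducts. In both cases the arrays of the groups did not overlap but the log2 changes were small, at -0.15 ± 0.15 for Hoxb7 and 0.23 ± 0.17 for Hoxb3 (SE, limma adjusted p = 0.722 and 0.577). Hoxb8, the paralogue of Hoxc8, had a log2 change of -0.01, with an interval from -0.48 to 0.47 and signals of 6.08 to 6.48 in mutant and 5.87 to 6.52 in control ducts. The hindbrain gene Hoxb2 was at 8.66 to 8.85 in mutant and 8.13 to 8.75 in control ducts, Hoxb5 at 6.62 to 6.82 in mutant and 6.63 to 7.27 in control ducts, and Hoxb6 at 6.85 to 7.31 in mutant and 6.84 to 7.58 in control ducts. These overlapped in each case. Hoxb1, a hindbrain gene, Hoxb9 and the prostate and tail gene Hoxb13 were below background on every array. Their signals were 3.81 to 4.35, 5.04 to 5.43 and 3.27 to 3.55 in mutant ducts and 3.42 to 4.18, 5.14 to 5.59 and 3.22 to 3.89 in control ducts.

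Over all 33 members, 17 log2 changes were positive and 16 negative, with a median of 0.00 and quartiles of -0.22 and 0.23, against a median of -0.01 and quartiles of -0.20 and 0.19 over all rows. The middle of the family thus lay close to that of the array. Mutant and control arrays did not overlap for 6 genes that were lower in mutant ducts (18.2%), against 10.2% of all rows. These were Hoxa11, Hoxb7, Hoxd8, Hoxd9, Hoxd10 and Hoxd11. For 5 genes the mutant arrays were all higher (15.2%), against 10.9% of all rows, and these were Hoxb3, Hoxc4, Hoxc5, Hoxc8 and Hoxd13.

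Of the 33 genes, 25 were above background on every array, and 18 were also above its 75th percentile. The 8 genes that were below background on every array were Hoxa13, Hoxb1, Hoxb9, Hoxb13, Hoxc12, Hoxc13, Hoxd1 and Hoxd13, and they included every gene numbered 1 or 13 with a row. Over all 33, the log2 change and the paralogue number had a Spearman rho of -0.23 and a Pearson r of -0.26. Over the 25 above background rho was -0.49 and r -0.47, and a rho of -0.45 over the 21 genes left without the 4 that passed the test. With 1 array left out, rho over the 25 ran from -0.54 to -0.37. This is a description over genes that share 6 arrays, and its values are not independent of the changes already given.

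By class, among those above background, the 6 genes numbered 1 to 4 had 5 positive and 1 negative log2 change and a median of 0.22. The 10 genes numbered 5 to 8 had 5 of each and a median of 0.02. The 9 genes numbered 9 to 12 had 2 positive and 7 negative changes and a median of -0.75. The positive ones of this class were Hoxc11 and Hoxd12, whose signals lay near background. Some negative ones did so too in mutant ducts. There Hoxd9 and Hoxc9 averaged 0.69 and 0.93 above background, against 0.99 for Hoxd12. Over all members with a row, the 8 genes numbered 1 to 4 had a median of 0.17, and the 15 genes numbered 9 to 13 had 6 positive and 9 negative changes and a median of -0.16. By cluster, the medians over the genes above background were 0.04 for 7 HoxA genes, -0.08 for 6 HoxB genes, 0.13 for 7 HoxC genes and -1.38 for 5 HoxD genes. Over all members with a row they were 0.13 for 8 HoxA genes, -0.09 for 9 HoxB genes, 0.08 for 9 HoxC genes and -0.30 for 7 HoxD genes, so the HoxD median depends on leaving out Hoxd1 and Hoxd13.

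The arrays of a group did not move as one for the high-numbered class. The median deviation of the 9 genes from their mean over all arrays was -0.49, -0.09 and -0.80 in mutant 1, mutant 2 and mutant 3, against 0.60, 0.46 and 0.35 on the control arrays. Mutant 2 thus lay closest to the controls for the class as a whole, as for Hoxa10 and Hoxa11. For the genes numbered 1 to 4 the same medians were 0.03, 0.07 and 0.13 on mutant arrays and 0.03, -0.17 and -0.08 on control arrays, with a much smaller spread.

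**Figure D3:**
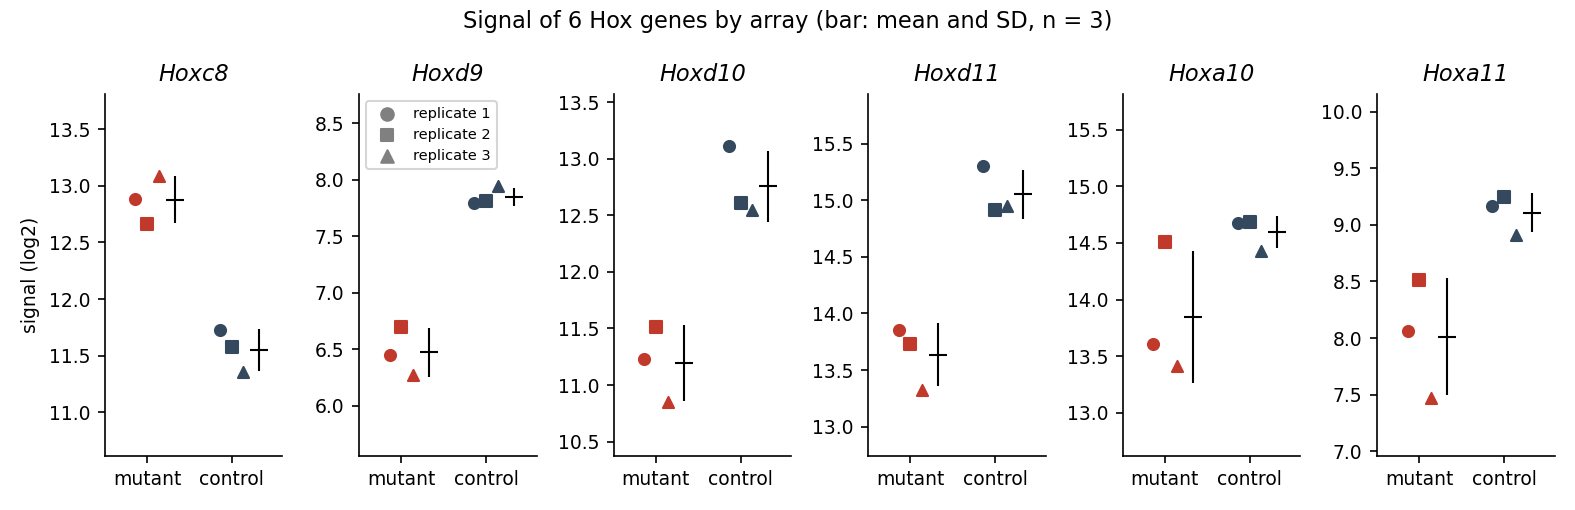
Log2 signal by array of Hoxc8, Hoxd9, Hoxd10, Hoxd11, Hoxa10 and Hoxa11, mutant (red) left of control (dark blue), with marker shape for the replicate number and a bar for the mean and SD (n = 3). Each panel has its own y range of the same length. Mutant 2 of Hoxa10, at 14.51, lies within the control range of 14.43 to 14.68.

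Whether the genes that passed the test differ from their neighbours and paralogues was examined by the difference of log2 changes, taken within each array. Each of the 4 was set against the genes next to it and those of the same number that had not passed and were above background on every array, which gave 11 pairs. Because the 4 were picked for passing and the others for not passing in the same contrast, the choice builds such a difference in, and the values are a description. Hoxd11 changed by 1.91 less than Hoxd12 on the log2 scale, a difference of -1.91, and Hoxd9 differed from Hoxd8 by -1.08. Against paralogues, Hoxd10 differed from Hoxa10 by -0.80 and from Hoxc10 by -1.23, and Hoxd9 from Hoxc9 by -0.98. Hoxd11 differed from Hoxc11 by -1.50.

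The exception was Hoxd11 against Hoxa11, where the difference was -0.33 and the arrays of the groups overlapped (two-sided exact permutation p = 0.3). Hoxc8 differed from its neighbours Hoxc6 and Hoxc9 by 0.72 and 1.72, and from its paralogues Hoxb8 and Hoxd8 by 1.33 and 1.63. In 10 of the 11 pairs the arrays did not overlap and the exact permutation p was 0.1, the smallest that 3 against 3 allows, or 0.11 adjusted over the 11 pairs. With 3 arrays a group this permutation test cannot reach 0.05. Because of how the pairs were chosen, its p-values are no test of a difference.

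The calls of Hoxc8, Hoxd9, Hoxd10 and Hoxd11 held in each of the 13 alternative fits and at a stricter adjusted p of 0.01 in the fit of all 6 arrays. With 1 array left out, the log2 change of Hoxc8 ran from 1.22 to 1.43, that of Hoxd9 from -1.49 to -1.28, that of Hoxd10 from -1.72 to -1.38 and that of Hoxd11 from -1.53 to -1.26. The adjusted p stayed at or below 0.0292 in these fits. Without control 3, the array with urothelial and smooth muscle signal, the changes were 1.23 for Hoxc8, -1.33 for Hoxd9, -1.66 for Hoxd10 and -1.47 for Hoxd11, with adjusted p from 0.00905 to 0.0139. Of the 29 genes that did not pass, 27 passed in none of the alternative fits, with a smallest adjusted p of 0.213.

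**Figure D4:**
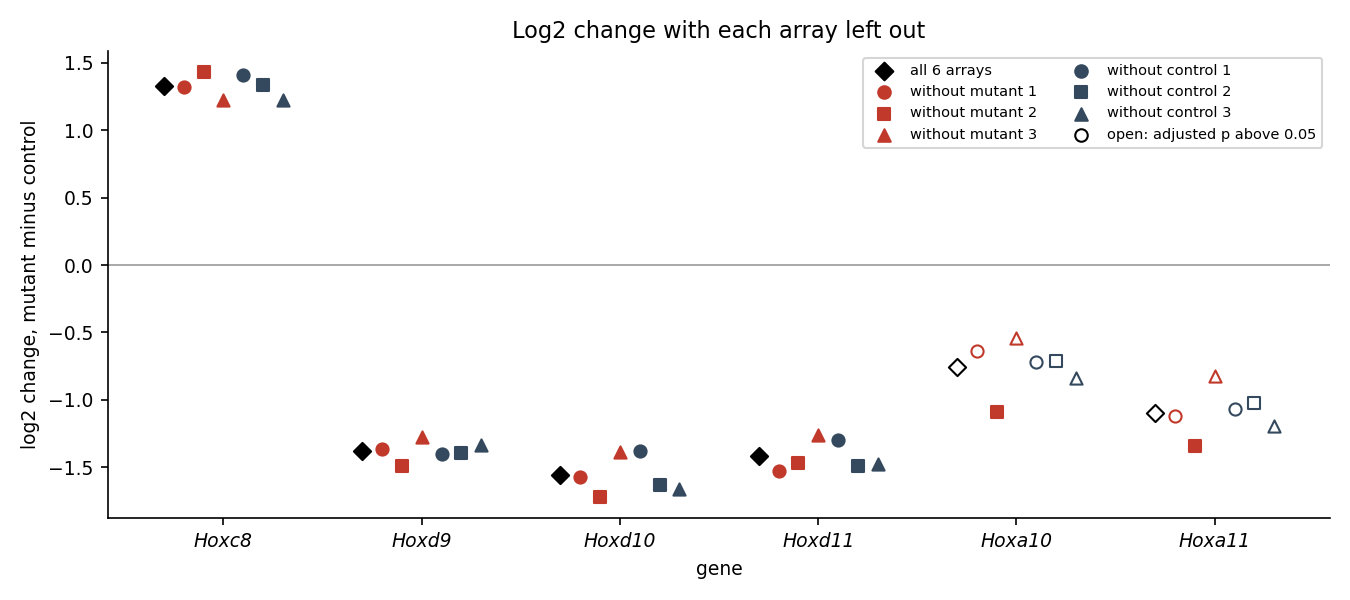
Log2 change, mutant minus control, of the 6 genes on the x axis with all 6 arrays (black diamond) and with each array left out in turn, in red where a mutant and in dark blue where a control array was left out. Open markers have an adjusted p above 0.05. Hoxc8, Hoxd9, Hoxd10 and Hoxd11 are filled throughout, and Hoxa10 and Hoxa11 are filled without mutant 2 alone.

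The signals of the genes numbered 13, which mark the tail end of the tract, stand here beside those of other tissues on control 3. In control 3 the urothelial genes Upk2 and Psca were at 12.21 and 11.90, against at most 4.16 and 5.07 on the other 5 arrays. The smooth muscle genes Myh11 and Actg2 were at 12.58 and 15.15 there. Hoxa13, Hoxb13, Hoxc13 and Hoxd13 were at 3.84, 3.35, 3.89 and 4.59 in control 3, all below background, as on the other arrays. Markers of the genital tubercle and hindlimb averaged 6.38 to 6.45 in mutant and 6.50 to 6.78 in control ducts, and 0 of 8 passed the test. The mutant means of this list were all below the control means. Sall1 had a log2 change of -1.11 (limma adjusted p = 0.0999) and Prrx1 of -0.43 (0.221), both without overlap between groups. Fgf10 of the same list went the other way, also without overlap, with a log2 change of 0.82 (limma adjusted p = 0.29). What these rows, below background or not past the test, say of the tissue dissected was not tested.

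**Figure D5:**
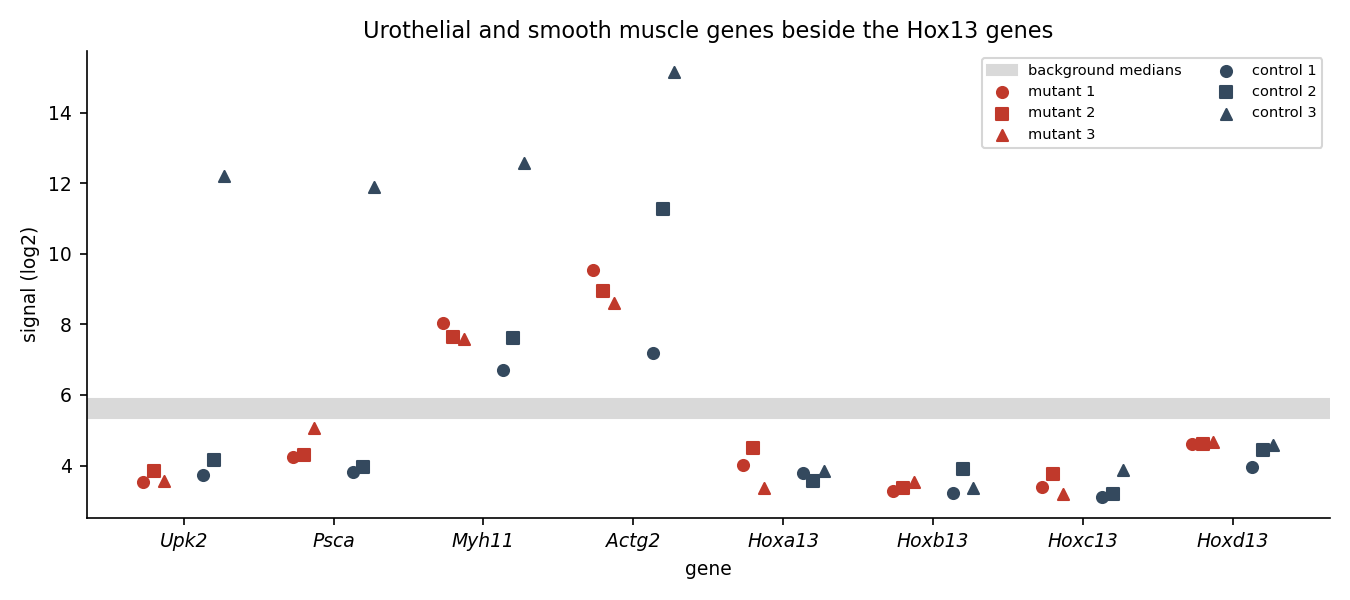
Log2 signal by array of 2 urothelial genes (Upk2, Psca), 2 smooth muscle genes (Myh11, Actg2) and the 4 Hox genes numbered 13, mutant (red) left of control (dark blue), with the range of the 6 background medians as a grey band. Control 3 stands above all other arrays for the first 4 genes, and the 4 Hox genes lie under the band on every array.

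Other cell types moved with genotype beside the Hox genes. In the fit of all arrays 2.59% of all rows rose and 0.666% fell, the shares to set beside the list counts of that fit. Of 9 macrophage markers 7 rose and 0 fell, and their mean signal was 9.52 to 9.70 in mutant and 8.30 to 8.49 in control ducts. Immediate early and stress genes rose in 5 of 14 cases, with a mean of 9.28 to 9.35 in mutant and 8.03 to 8.52 in control ducts. Markers of the Müllerian mesenchyme had a mean of 12.26 to 12.56 in mutant and 12.97 to 13.20 in control ducts, and 1 of 9 fell. It was Amhr2, the locus that carries Cre, at 6.92, 7.52 and 6.54 in mutant ducts, against 10.88, 10.51 and 10.80 in control ducts (log2 change -3.73 ± 0.25 (SE), limma adjusted p = 0.000112). Over the 8 mesenchymal markers other than Amhr2, 0 passed, and the mean was 12.93 to 13.19 in mutant and 13.28 to 13.50 in control ducts, a difference of -0.37. The means of the mesenchymal list, with or without Amhr2, and of the genital tubercle and retinoic acid lists were lower on every mutant than on every control array, the direction of the HoxD genes, and those of the macrophage and stress lists were higher, the direction of Hoxc8. The part of these markers in the Hox results was not tested. Epithelial markers averaged 8.30 to 9.05 in mutant and 8.51 to 9.10 in control ducts, with 1 of 11 rising (Lhx1, below background on every array).

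Of the other cell types, 1 of 12 smooth muscle markers rose and 1 fell, against 2.59% and 0.666% of all rows. Without control 3, a setting chosen for these lists after seeing the data, 3 rose (Acta2, Tagln and Cnn1) and 1 fell (Synpo2), while 0 of 12 urothelial markers passed with or without it. Of the stress genes 7 rose without it. In the fit of all arrays, 1 of 8 endothelial and 1 of 5 mesothelial markers rose, and 1 of 7 gut and enteric nerve markers, Fabp2, fell at signals below background on every array. None of 12 urothelial, 8 Wolffian and kidney, 10 ovary, 7 testis and 8 skeletal muscle markers passed. Many of these lay below background on every array: 6 ovary, 4 testis, 4 Wolffian and kidney, 4 skeletal muscle and 3 gut and enteric nerve markers.

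The proteins that Hox factors bind DNA with showed no member past the threshold. Of 8 measured genes of the Pbx, Meis and Prep families 0 rose and 0 fell, with a median log2 change of -0.18, against -0.01 over all rows. Pbx3, a Hox cofactor, was at 11.39, 11.78 and 11.79 in mutant ducts, against 11.12, 10.76 and 10.97 in control ducts. These did not overlap, and its log2 change of 0.70 ± 0.19 (SE) had a limma adjusted p of 0.0899, which passed with a prior that follows mean signal (0.0368). Meis1, another cofactor, was at 15.04, 15.01 and 15.05 in mutant ducts, against 15.60, 15.55 and 15.28 in control ducts, with a log2 change of -0.44 ± 0.16 (SE, limma adjusted p = 0.235).

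The Cdx and Gdf11 inputs are the factors and signals that switch on trunk and tail Hox genes in the early embryo. Among 10 measured genes of these, 0 rose and 1 fell, against 2.59% and 0.666% of all rows, with a median of 0.05. Gdf11, the signal that times the start of the high-numbered Hox genes at the trunk-to-tail transition, had signals of 7.33, 7.56 and 7.56 in mutant ducts, against 8.37, 8.37 and 8.15 in control ducts. The groups did not overlap, and the log2 change was -0.81 ± 0.16 (SE, limma adjusted p = 0.0298). That call was kept in 1 of the 6 fits that left out an array, without control 3, and the adjusted p reached 0.126 without mutant 1. Cdx2, Cdx4, Fgf8 and Wnt3a were below background on every array.

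Retinoic acid is another input to Hox genes, and the clusters contain sites for its receptors. Of 18 measured genes of the pathway 1 rose and 2 fell, against 2.59% and 0.666% of all rows, with a median of -0.03. Crabp1, which binds retinoic acid in the cytoplasm, was at 10.05, 10.77 and 10.76 in mutant ducts, against 12.08, 11.61 and 11.61 in control ducts, with a log2 change of -1.24 ± 0.24 (SE, limma adjusted p = 0.0235). Crabp2, which carries retinoic acid to its receptors, was at 9.78, 10.32 and 10.54 in mutant ducts, against 11.23, 11.51 and 11.18 in control ducts, with a log2 change of -1.09 ± 0.22 (SE, limma adjusted p = 0.0291). Neither gene's groups overlapped, but Crabp1 did not pass when control 1 (adjusted p = 0.0984), control 2 (0.062) or mutant 1 (0.069) was left out, and the call of Crabp2 was kept only without control 3 or mutant 3 (up to 0.112). Cyp26a1, which degrades retinoic acid, was at 5.27, 4.79 and 5.97 in mutant ducts, against 3.69, 3.97 and 3.77 in control ducts. It passed the test (limma adjusted p = 0.0165), but only mutant 3 was above background, so no fold is given, and it did not pass when any of these was left out: control 1 (0.0741), control 2 (0.0513) or mutant 1 (0.0585).

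Polycomb complexes keep Hox clusters silent, and trithorax complexes keep them active. Of 22 measured Polycomb genes 1 rose and 0 fell, against 2.59% and 0.666% of all rows, with a median of -0.15. Of 10 trithorax genes and H3K27 demethylases 0 rose and 0 fell, with a median of -0.13. The gene that rose was Pcgf5, a subunit of a variant Polycomb repressive complex, at 8.85, 8.65 and 8.50 in mutant ducts, against 6.70, 7.06 and 6.28 in control ducts. Every mutant array was more than 1 above every control array on the log2 scale. The log2 change was 1.99 ± 0.22 (SE, limma adjusted p = 0.00137), and with 1 array left out it stayed past the threshold in 6 of 6 fits. Other Polycomb genes were lower in mutant ducts without overlap and without passing. Among them Jarid2 had a log2 change of -0.63 (limma adjusted p = 0.0735) and Bmi1 of -0.67 (0.0958).

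The genes that flank the clusters were measured because they share the long-range domains of the clusters. None of 16 passed the test, with a median log2 change of 0.00. Mtx2 and Lnpk, which flank HoxD, had changes of -0.07 and 0.28, and Skap2, which flanks HoxA, of 0.57 with a limma adjusted p of 0.256. Evx1 and Evx2, homeobox genes next to the genes numbered 13, were below background on every array. Of 19 noncoding RNAs of the clusters 2 had a row, Hoxa11os and Hoxd3os1, and the change of Hoxd3os1 was 0.28 ± 0.17 (SE, limma adjusted p = 0.499).

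Of 18 genes that pattern the female tract or are linked to Hox function in it, 1 rose and 1 fell, with a median of -0.08. Over all rows 2.59% rose and 0.666% fell. Ptger3, a prostaglandin receptor, was at 8.96, 9.65 and 9.31 in mutant ducts, against 10.35, 10.43 and 10.52 in control ducts. The groups did not overlap, with a log2 change of -1.13 ± 0.20 (SE, limma adjusted p = 0.0162), and the call was kept in 2 of the 6 fits that left out an array, without control 3 and without mutant 2 (adjusted p up to 0.0610 in the others). The gene that rose was Lhx1, which is needed for the duct to form, at a signal below background on every array (limma adjusted p = 0.0358), a call kept in 1 of those 6 fits, without control 1. Emx2, another homeobox gene of the tract, had a log2 change of -0.71 ± 0.23 (SE, limma adjusted p = 0.174). Wnt4 of the same list went the other way without passing, with a log2 change of 1.00 ± 0.23 (SE, limma adjusted p = 0.053). Its groups did not overlap.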

How the data were processed

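Total RNA of 6 Müllerian duct samples was hybridised to Affymetrix arrays, and the authors deposited log2 signals for all arrays in 1 table of 28846 rows. The submitters' processing notes name Transcriptome Analysis Console 4.0. How probes were summarised and arrays normalized, and the genome build, are not given in the sources used here. Array medians differed little, so these log2 values entered the fits as the authors deposited them. With 3 arrays a group, the number of arrays sets the precision.

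Groups follow the labelled genotype. Control rows were left out, and 22206 transcript clusters were fitted in R 4.3.3 with limma 3.58.1 (lmFit, eBayes, two-sided, Benjamini-Hochberg over all rows, threshold 0.05). A gene is below background where its signal is under the median of the 23 antigenomic rows of the same array. Gene symbols were taken from the platform annotation (19572 rows with 1 symbol, 0 with several, 2634 with none), so Hox genes were matched by symbol. Promoters and gene order came from RefSeq (GRCm38.p6).

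The members and gene lists were chosen with earlier results of these data known, so list counts are descriptions. Every Hox gene is accounted for. Genes of other lists are named where they passed the threshold, at most the 4 with the smallest p. The macrophage, stress, endothelial and mesothelial lists are an exception, and the genes that passed there are counted but not named. Wt1, Nr2f2, Pax8 and Wnt7a were named as examples of their lists. Pbx3, Meis1, Emx2, Wnt4, Jarid2, Bmi1, Mtx2, Lnpk, Skap2, Hoxa11os, Hoxd3os1 and the genes named as below background were named after their values were seen, as were Upk2, Psca, Myh11, Actg2, Sall1, Prrx1, Fgf10, Acta2, Tagln, Cnn1, Synpo2 and Fabp2.

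On simulated data of 22206 rows, the fit recovered 59% of 100 rows changed by 1 on the log2 scale and 99% of 100 rows changed by 2, with 0 wrong signs, and called 10 unchanged rows. Alternative fits used a common median, quantile normalization, array weights, a prior that follows mean signal, 2 filters on dim rows, the replicate number as a block, or left out each array. Python 3.11.15 and matplotlib 3.10.9 drew the figures.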

Additional observations from a re-analysis of the deposited data

How the results depend on the processing

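Hox genes that rose numbered 1 in every alternative, and those that fell 3 to 5, with 5 (Hoxa10 and Hoxa11 added) without mutant 2, and 3 in the other fits that left out 1 array. The median log2 change of the Hox genes ran from -0.098 (without control 2) to 0.066 (without control 3) with 1 array left out. Of the 29 Hox genes that did not pass, 10 changed sign in some fit. Over all rows, 243 fell with a trended and robust prior and 243 with rows not above background on 3 arrays left out, against 148. With 1 array left out, rises ran from 305 (without mutant 1) to 565 and falls from 55 (without mutant 1) to 132, with 320 and 64 without control 1, 378 and 76 without control 2, and 92 falls without mutant 3. Scaling moved the median of all rows by at most 0.02. The causes of these shifts were not tested. With the replicate number as a block, 502 rose and 131 fell, and Hoxa11 was the fourth Hox gene that fell (adjusted p = 0.0305). Gdf11, Crabp1 and Lhx1 were no longer past the threshold (0.0705, 0.0566 and 0.0716), and no other named call changed. Deviations of same-numbered arrays correlated at 0.01, 0.04 and -0.00, so the numbers were not taken as pairs. Against the 75th or 95th percentile of the background rows, 18 Hox genes were above background on every array in place of 25. Signal over background limits what can be said of the 8 genes below it and of mutant Hoxd9.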
